A study of Chlamydomonas reinhardtii with 9 samples.

Results

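The comparison described here set the green alga Chlamydomonas reinhardtii after 0.5 h without iron against the same cultures at 0 h. Both groups were strain CC-4532 (2137), grown in continuous light on acetate-containing TAP medium at 24C to mid-logarithmic phase. The cells were then spun down, washed in TAP lacking the iron chelate Fe-EDTA, and put into new medium of that kind. The 0.5 h cells had spent 0.5 h in it, and the 0 h cells had already been through the spin and the wash. Each group was a pair of columns of RPKM (read counts scaled for transcript length and library size) from RNA sequencing of whole cultures. The full study sampled 9 times, in 18 columns. All transcripts with a mean of at least 1 RPKM at 0.5 h or at 0 h were compared, 12727 of the 17301 in the table. Of these, 11322 passed at both times, 1055 only through the 0.5 h columns and 350 only through the 0 h columns. The transcript nearest above the limit, Cre12.g518107, had a mean of 1.00 RPKM at 0.5 h and 0.703 RPKM at 0 h, and the one nearest below it, Cre22.g762400, had 0.855 RPKM at 0.5 h and 0.9999 RPKM at 0 h.

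Chlamydomonas takes up iron by a reductive route, in which a surface reductase turns ferric into ferrous iron and a copper-containing ferroxidase passes it to a permease. Iron is carried by the heme and iron-sulfur proteins of both electron transport chains, by hydrogenase and other enzymes of fermentation, and by many oxygenases. The same cells sense inorganic carbon, oxygen, copper and sulfur and adjust the corresponding genes within minutes to hours. No culture with iron was among the samples, so loss of iron, the fresh medium, the spin and wash, and elapsed time cannot be told apart. In RNA from whole cultures, fewer cells of a kind and less RNA per cell cannot be told apart either.

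The libraries behind the 4 columns held 16.8 M and 13.6 M reads at 0.5 h and 18.4 M and 31.7 M reads at 0 h, as recovered from the steps between low values. Duplicates correlated at 0.985 at 0.5 h and at 0.981 at 0 h on the log2 scale across transcripts, which are not independent of each other. Between duplicates, 91.7% of transcripts lay within 1.5-fold at 0.5 h and 87.7% at 0 h. Changes were tested with limma-trend on log2(RPKM + 1), paired by duplicate number. A call needed a change of 2-fold or more together with an adjusted p (Benjamini-Hochberg) under 0.05. The added 1 RPKM understates the change of weakly expressed transcripts. The series lists 1 sample per time and its design text calls the 2 columns biological duplicates. The fit took its residual variance from all 18 columns of the 9 times. Each p-value therefore reflects the spread between duplicates at every time, not that of the 4 compared columns alone. This spread may be technical.

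After 0.5 h, 742 transcripts (5.83%) were higher and 474 (3.72%) were lower than at 0 h, 9.55% in all. Among the 11322 transcripts of at least 1 RPKM at both times, 5.28% were higher and 3.85% lower. In 738 of the higher and 472 of the lower transcripts the columns of the groups did not overlap, as was so upward for 40.7% and downward for 23.7% of all transcripts. The median log2 change was 1.19 among the higher and -1.26 among the lower transcripts. On the log2(RPKM + 1) scale 22 higher and 43 lower transcripts had changed by at least 4-fold, and 4 higher and 13 lower ones by at least 8-fold. Higher transcripts had a median of 8.10 RPKM at 0.5 h and 2.83 RPKM at 0 h, and lower transcripts a median of 11.2 RPKM at 0.5 h and 28.9 RPKM at 0 h, beside 6.50 RPKM at 0.5 h and 5.86 RPKM at 0 h over all transcripts. Among transcripts of 1 to 10 RPKM, 6.67% were higher and 2.05% lower, and among those of at least 100 RPKM 4.52% were higher and 8.00% lower. Summed RPKM of the transcripts called lower came to 1.80% of the total at 0.5 h, against 5.19% at 0 h. For those called higher it came to 3.52% at 0.5 h, against 1.29% at 0 h. The direction of both sums follows from how the sets were chosen. Which direction led depended on the scaling: with each column centred on its median, which shifts the median change of 0.14 (log2) to 0, 446 transcripts (3.5%) were higher and 694 (5.45%) lower.

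**Figure D1:**
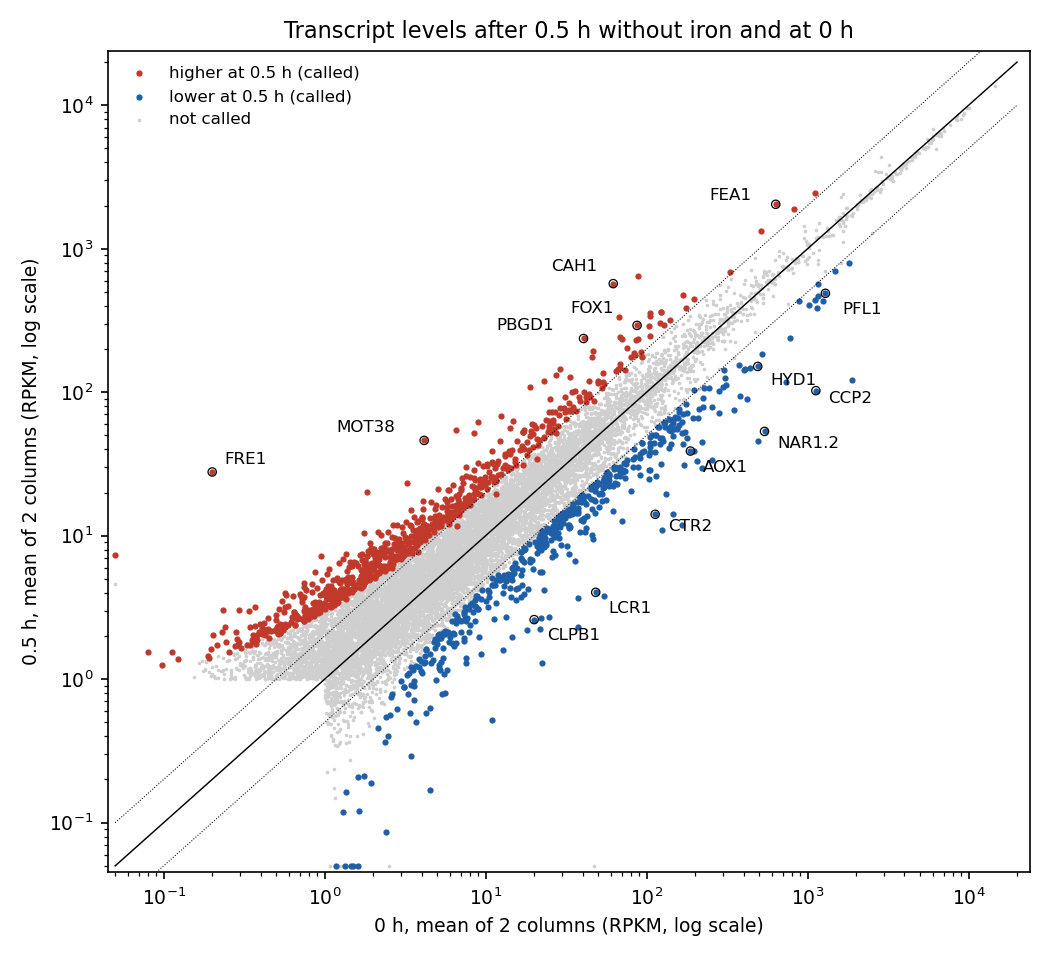
Mean RPKM of each of the 12727 transcripts at 0.5 h (vertical axis) against 0 h (horizontal axis), both on log scales, with red for the 742 called higher, blue for the 474 called lower and grey for the rest. The solid line marks equal levels, the dotted lines mark 2-fold, and means under 0.05 RPKM are drawn at 0.05. FRE1 stands farthest above the line, while strongly expressed NAR1.2, CCP2 and CTR2 lie far below it.

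Genes of reductive iron uptake were among those that rose. The ferric-chelate reductase gene FRE1 (Cre04.g227400) had 17.99 and 37.6 RPKM at 0.5 h, against 0.253 and 0.147 RPKM at 0 h. These values stood for 1296 and 2190 reads at 0.5 h and 20 reads in each library at 0 h, a 139-fold difference in mean RPKM and, at 4.50 on the log2 scale of the test (SE 0.22, adjusted p = 1.5e-07), the largest rise of all 12727 transcripts. FOX1 (Cre09.g393150), the multicopper ferroxidase, had 283.9 and 301 RPKM at 0.5 h, against 107 and 68.0 RPKM at 0 h (log2 change 1.77, SE 0.13, adjusted p = 1.0e-06). Its permease FTR1 (Cre03.g192050) had 215 and 252 RPKM at 0.5 h, against 105 and 72.8 RPKM at 0 h (log2 change 1.40, SE 0.15, adjusted p = 9.8e-06). For all 3 genes both 0.5 h columns lay above both 0 h columns, as for 40.7% of all transcripts.

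FEA1 (Cre12.g546550), a secreted protein that assists iron assimilation, had 2053 and 2030.2 RPKM at 0.5 h, against 1029 and 240.1 RPKM at 0 h. Its duplicates matched closely at 0.5 h and stood apart at 0 h, so the size of its log2 change of 2.04 (SE 0.37, adjusted p = 4.8e-04) depended on which 0 h column was used. It was 1.06 without duplicate 2 of 0 h and 3.01 without duplicate 1. IRT1 (Cre12.g530400), a ZIP-family transporter, was weakly expressed, with 1.61 and 6.46 RPKM at 0.5 h, against 1.27 and 0.398 RPKM at 0 h. It was called (log2 change 1.31, SE 0.47, adjusted p = 0.029) through duplicate 2: the change was 0.28 with that column of 0.5 h left out and 1.09 with that of 0 h left out, neither of them called. It was also lost after centring (1.17, adjusted p = 0.050) and without the replicate block (adjusted p = 0.057).

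The remaining uptake genes were not called. FOX2 (Cre12.g531200), a second multicopper oxidase gene, had 5.67 and 5.59 RPKM at 0.5 h, against 9.80 and 9.996 RPKM at 0 h (log2 change -0.72, SE 0.11). NRAMP1 (Cre17.g707700), described as a manganese transporter, had 22.1 and 21.1 RPKM at 0.5 h, between the 12.5 and 25.4 RPKM of 0 h. Of the 7 listed uptake genes 5 were higher and 0 lower, beside 5.83% and 3.72% of all transcripts. Their median log2 change was 1.40, beside 0.14 over all transcripts. After centring 4 of the 7 were higher. The 2 transcripts beside FEA1 on the chromosome, Cre12.g546600 and Cre12.g546500, which carry no description in the table and were singled out after their values were seen, had also risen (log2 changes 1.10 and 1.43). Cre12.g546600 had 279.7 and 499 RPKM at 0.5 h, against 201 and 149 RPKM at 0 h, and was not called after centring (0.96) or when duplicate 2 was left out at 0.5 h (0.53) or at 0 h (0.97). Genes that store iron or build iron-sulfur clusters had not passed the threshold. Of 16 tested, limma called 0, with log2 changes of -0.48 to 0.77. Among them 9 higher and 2 lower had an unadjusted p under 0.05, as did 7762 of all 12727 transcripts.

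Copper handling split into both directions. CYC6 (Cre16.g651050), the heme protein that takes the place of plastocyanin in copper-poor cells, had 21.8 and 20.5 RPKM at 0.5 h, against 2.16 and 7.90 RPKM at 0 h (log2 change 2.06, SE 0.29, adjusted p = 7.7e-05). Without duplicate 1 of 0 h the change was 1.32. The assimilatory copper transporters CTR2 (Cre10.g434350) and CTR1 (Cre13.g570600) fell. CTR2 dropped to 10.4 and 17.8 RPKM at 0.5 h, against 116 and 110.6 RPKM at 0 h, a log2 change of -2.96 (SE 0.19, adjusted p = 5.2e-07). CTR1 had 9.73 and 20.2 RPKM at 0.5 h, against 33.2 and 32.9 RPKM at 0 h (log2 change -1.17, SE 0.19, adjusted p = 2.1e-04), and -0.74 without duplicate 1 of 0.5 h. COPT1, a further copper transporter, was not called, with 6.07 and 6.84 RPKM at 0.5 h, against 3.79 and 2.99 RPKM at 0 h (log2 change 0.77). Of 10 copper genes tested, FOX1 included, 2 (20%) were higher and 2 (20%) lower, beside 5.83% and 3.72% of all transcripts. In the short list of other metals, with 5 tested, ZIP6 (Cre06.g299600), a ZIP-family transporter, was lower (4.46 and 5.60 RPKM at 0.5 h, against 10.2 and 15.5 RPKM at 0 h; log2 change -1.18, SE 0.12, adjusted p = 6.1e-06). MTP1, of a family of metal exporters, was not called at -0.67.

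**Figure D2:**
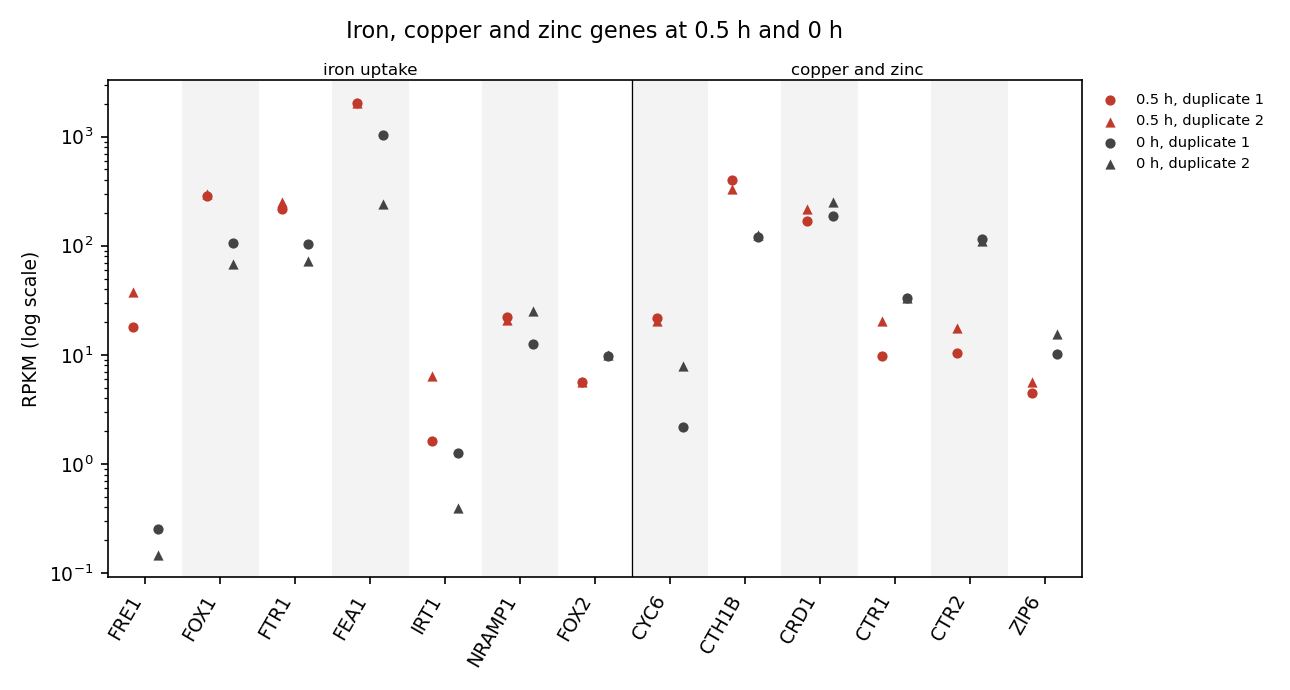
RPKM in each column (log scale) for genes of iron uptake and of copper and zinc handling, with 0.5 h in red to the left of 0 h in dark grey for each gene, and circles and triangles for duplicates 1 and 2. FRE1 is separated by 2 orders of magnitude, CTR2 lies wholly lower at 0.5 h, and the 0 h duplicates of FEA1 and CYC6 stand apart.

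Several genes of chlorophyll synthesis were higher at 0.5 h. Plants and algae make heme and chlorophyll on a common route from glutamate, which forks at protoporphyrin, where iron or magnesium is inserted. PBGD1 (Cre16.g663900), porphobilinogen deaminase on the common part, had 269 and 205 RPKM at 0.5 h, against 40.3 and 40.9 RPKM at 0 h, a log2 change of 2.50 (SE 0.14, adjusted p = 2.3e-07). CHLH1 (Cre07.g325500), the large subunit of magnesium chelatase, had 148 and 116 RPKM at 0.5 h, against 27.7 and 27.2 RPKM at 0 h (log2 change 2.22, SE 0.12, adjusted p = 1.6e-07). GUN4 (Cre05.g246800), which activates that enzyme, had 58.5 and 54.0 RPKM at 0.5 h, against 13.98 and 14.4 RPKM at 0 h (log2 change 1.91, SE 0.12). In each of these 3 genes both 0.5 h columns were far above the closely matched 0 h columns. Both lay above, by any amount, in 40.7% of all transcripts.

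Further along, POR (Cre01.g015350), the light-dependent protochlorophyllide reductase, had 267 and 220.4 RPKM at 0.5 h, against 64.5 and 72.0 RPKM at 0 h (log2 change 1.81, SE 0.12). At the start of the route, GSA (Cre03.g158000) and HEMA (Cre07.g342150), which make aminolevulinate, rose by 1.47 and 1.10 on the log2 scale; HEMA stood at 0.97 after centring and at 0.92 without duplicate 1 of 0 h. Members of the list that were not called were looked up after their values were seen, to follow the route. UROD1, PPX1, CHLD, CHLM and CAO had log2 changes of 0.87, 0.93, 0.87, 0.85 and 0.90, just under the 2-fold limit, and CHLI2 had 0.56. HEM15, the ferrochelatase that inserts iron, had 43.6 and 57.4 RPKM at 0.5 h, against 53.8 and 63.1 RPKM at 0 h (log2 change -0.21). Of 25 tetrapyrrole genes 6 (24%) were higher and 0 lower, beside 5.83% and 3.72% of all transcripts. Their median log2 change was 0.57, beside 0.14 over all transcripts, and 5 were higher after centring.

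The aerobic cyclase that closes the fifth ring of chlorophyll is a diiron enzyme with a pair of genes. CTH1B (Cre12.g510050), described in the table as a copper target protein, had 397 and 330.4 RPKM at 0.5 h, against 119.96 and 127 RPKM at 0 h (log2 change 1.55, SE 0.13, adjusted p = 2.7e-06). Its counterpart CRD1 (Cre07.g346050), known for its induction in copper-poor or oxygen-poor cells, had 168 and 219 RPKM at 0.5 h, against 189 and 250.9 RPKM at 0 h, and was not called (log2 change -0.18). CPX1, a coproporphyrinogen oxidase regulated with CRD1 in copper-poor cells, was not called at 0.42. CTH1B was chosen after its values were seen.

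**Figure D3:**
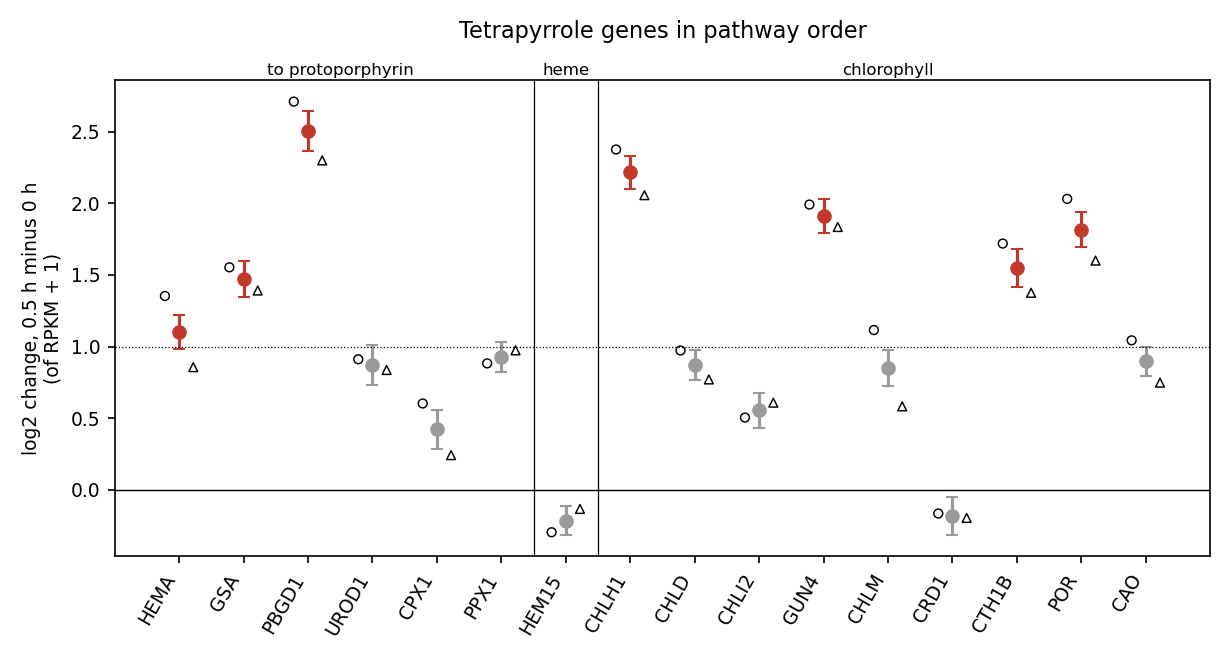
Log2 change from 0 h to 0.5 h of tetrapyrrole genes in pathway order, with the fitted change and its SE as filled points (red where called, grey where not) and the changes of duplicate pairs 1 and 2 as open circles and triangles; the dotted line marks 2-fold. PBGD1 and CHLH1 rose most, while HEM15 and CRD1 lie just below 0.

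Genes of the carbon concentrating mechanism, which brings bicarbonate to Rubisco when CO2 is scarce, included NAR1.2, CCP2, LCID and LCR1, which are 4 of the 13 transcripts lower by at least 8-fold. NAR1.2 (Cre06.g309000), a bicarbonate channel of the chloroplast envelope also known as LCIA, had 21.7 and 85.0 RPKM at 0.5 h, against 601 and 479 RPKM at 0 h (log2 change -3.61, SE 0.60, adjusted p = 2.4e-04). Without duplicate 1 of 0.5 h the change was -2.26 and without duplicate 2 it was -4.95. CCP2 (Cre04.g222750), described as a low-CO2-inducible protein of the chloroplast envelope, had 81.0 and 124 RPKM at 0.5 h, against 1294 and 958 RPKM at 0 h (log2 change -3.46, SE 0.24, adjusted p = 6.7e-07). Its neighbour LCID (Cre04.g222800), related to the soluble protein LCIB, had 8.32 and 19.9 RPKM at 0.5 h, against 157 and 136 RPKM at 0 h (log2 change -3.40, -2.72 without duplicate 1 of 0.5 h and -4.08 without duplicate 2). In all 3 genes the fall was steeper in pair 1 than in pair 2.

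The low-CO2 response regulator LCR1 (Cre02.g136800) had 3.86 and 4.21 RPKM at 0.5 h, against 65.4 and 31.2 RPKM at 0 h (log2 change -3.20, SE 0.28, adjusted p = 2.8e-06). The low-CO2 inducible genes LCI31 (Cre17.g698400), LCI11 (Cre16.g663400), LCI15 (Cre16.g685050) and LCI20 (Cre06.g260450, a 2-oxoglutarate/malate translocator) changed by -2.32, -2.20, -1.85 and -1.41, and LCI20 by -0.92 without duplicate 1 of 0.5 h. LCI11, a bestrophin-like channel, had 89.2 and 91.7 RPKM at 0.5 h, against 476 and 368 RPKM at 0 h. NAR1.3 (Cre03.g210900), of the same family as NAR1.2, fell by 2.16 on the log2 scale.

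The gene pair CCP1 and LCIE lies close to CCP2 and LCID and is nearly identical to it in parts, so how the counting divided their reads is not known. LCIE (Cre04.g223250) had 0.187 and 0.232 RPKM at 0.5 h, against 1.67 and 1.57 RPKM at 0 h (log2 change -1.11), and rested on 4 and 4 reads at 0.5 h and 39 and 63 reads at 0 h. CCP1 (Cre04.g223300) had 61.6 and 146 RPKM at 0.5 h, against 181 and 213.9 RPKM at 0 h. The log2 change of -1.04 (adjusted p = 0.039) became -0.22 when duplicate 1 of 0.5 h was left out and -0.78 when duplicate 2 of 0 h was, and in neither case was it called. It was not called without the replicate block either (adjusted p = 0.069), nor with a pseudocount of 0.1 RPKM.

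Not every gene of the mechanism was lower. CAH1 (Cre04.g223100), the periplasmic carbonic anhydrase, was 9.21-fold higher, with 502 and 641 RPKM at 0.5 h, against 34.6 and 89.6 RPKM at 0 h (log2 change 3.32, SE 1.11, adjusted p = 0.021). Its SE was the widest of the genes named. The fit took its variance from all 18 columns, and the CAH1 duplicates stood far apart at later times. They had 362 and 19.4 RPKM at 4 h, 12.1 and 0.569 RPKM at 8 h, and 6.76 and 0.203 RPKM at 12 h. From 0 h to 0.5 h, duplicate pairs 1 and 2 changed by 3.82 and 2.83. The call was kept in the fit of the 4 columns alone. With duplicate 2 of 0.5 h left out the change was 2.70 and with duplicate 1 of 0 h left out 2.14, neither called, and it was not called with a pseudocount of 0.1 RPKM or no filter. LCI9 (Cre02.g130700), another low-CO2 inducible gene, had 90.2 and 93.8 RPKM at 0.5 h, against 30.9 and 45.6 RPKM at 0 h (log2 change 1.27, SE 0.31, adjusted p = 0.0034), and was no longer called without duplicate 1 of 0 h (0.75). LCIB (Cre10.g452800), a soluble protein needed to recapture CO2 and named here after its values were seen, had 1140.5 and 1429 RPKM at 0.5 h, against 2395 and 2635 RPKM at 0 h, just short of the fold limit (log2 change -0.98, and -0.46 to -1.49 when a column was left out). Of 40 genes tested 2 (5%) were higher and 11 (27.5%) lower, beside 5.83% and 3.72% of all transcripts. The list as a whole had a median log2 change of 0.04, as the other 27 were spread around 0. After centring 13 were lower.

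Genes of fermentation, which make hydrogen, formate and acetate when oxygen is short, were mostly lower. Of 10 tested, 7 (70%) were lower and 0 higher, beside 3.72% and 5.83% of all transcripts. Their median log2 change was -1.49, beside 0.14 over all transcripts. PFR1 (Cre11.g473950), pyruvate-ferredoxin oxidoreductase, had 10.48 and 14.9 RPKM at 0.5 h, against 67.0 and 72.9 RPKM at 0 h (log2 change -2.39, SE 0.26, adjusted p = 1.2e-05). HYD1 (Cre03.g199800), an iron-iron hydrogenase, had 115 and 188 RPKM at 0.5 h, against 505 and 475 RPKM at 0 h (log2 change -1.73, SE 0.14, adjusted p = 1.8e-06). HYDEF (Cre06.g296750), which helps build the hydrogenase cluster, had 3.40 and 3.69 RPKM at 0.5 h, against 20.1 and 10.98 RPKM at 0 h (log2 change -1.81, and -1.15 without duplicate 1 of 0 h). The undescribed transcript beside it, Cre06.g296700, fell with it (log2 change -2.53, and -1.81 without the same column). PFL1 (Cre01.g044800), pyruvate-formate lyase, had 444 and 535 RPKM at 0.5 h, against 1544 and 1038 RPKM at 0 h (log2 change -1.38, SE 0.21).

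FDX5 (Cre17.g700950), a ferredoxin known from oxygen-poor cells, had 25.6 and 31.5 RPKM at 0.5 h, against 47.4 and 164 RPKM at 0 h; the 0 h columns were far apart, and the log2 change of -1.61 was -1.01 without duplicate 2 of 0 h. HCP3 (Cre02.g129500), a hybrid-cluster protein, changed by -1.67. ACK1 (Cre09.g396700), acetate kinase, had 1.97 and 1.57 RPKM at 0.5 h, against 6.16 and 3.85 RPKM at 0 h. Its log2 change of -1.09 was under the 2-fold limit with duplicate 1 of 0 h left out (-0.76) and with duplicate 2 of 0.5 h left out (-0.96). Among the other ferredoxins FDX6 (Cre03.g183850) was higher, with 116 and 122 RPKM at 0.5 h, against 48.8 and 50.5 RPKM at 0 h (log2 change 1.25, SE 0.11). FDX3 and FDX4 were not called at 0.64 and 0.59.

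AOX1 (Cre09.g395950), the mitochondrial alternative oxidase, which takes electrons from ubiquinone to oxygen without pumping protons, dropped to 41.0 and 36.8 RPKM at 0.5 h, against 212 and 163 RPKM at 0 h (log2 change -2.23, SE 0.15, adjusted p = 5.4e-07). Few other genes of respiration were called: of 74 respiratory genes 1 was lower (AOX1) and 1 higher, COX16 (Cre03.g165400), an assembly factor of cytochrome oxidase (log2 change 1.32), and the median was 0.00.

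Among transcripts without a symbol, 4 described as prolyl 4-hydroxylases were lower. Enzymes of this kind use iron, oxygen and 2-oxoglutarate to modify proline, as in the hydroxyproline-rich glycoproteins of the algal wall. Cre02.g084450 had 6.30 and 15.5 RPKM at 0.5 h, against 130.1 and 120.99 RPKM at 0 h (log2 change -3.53, SE 0.32, adjusted p = 3.8e-06). Cre03.g179500 and Cre02.g084400, of which Cre02.g084400 lies beside Cre02.g084450, changed by -3.06 and -2.83, and Cre10.g443050 by -1.52 (-0.96 without duplicate 1 of 0 h). In all, 11 transcripts carry this description, grouped after the values were seen. The other 7 were not called and reached log2 changes of up to 0.45. The median log2 change of the 11 was -0.11, beside 0.14 over all transcripts. Of all transcripts 3.72% were called lower. In the cell wall list VSP4 (Cre02.g127250), a hydroxyproline-rich wall protein, was also lower, with 76.6 and 112 RPKM at 0.5 h, against 384 and 376 RPKM at 0 h (log2 change -2.02). Of 62 wall genes tested 6 (9.68%) were higher and 5 (8.06%) lower, beside 5.83% and 3.72% of all transcripts.

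**Figure D4:**
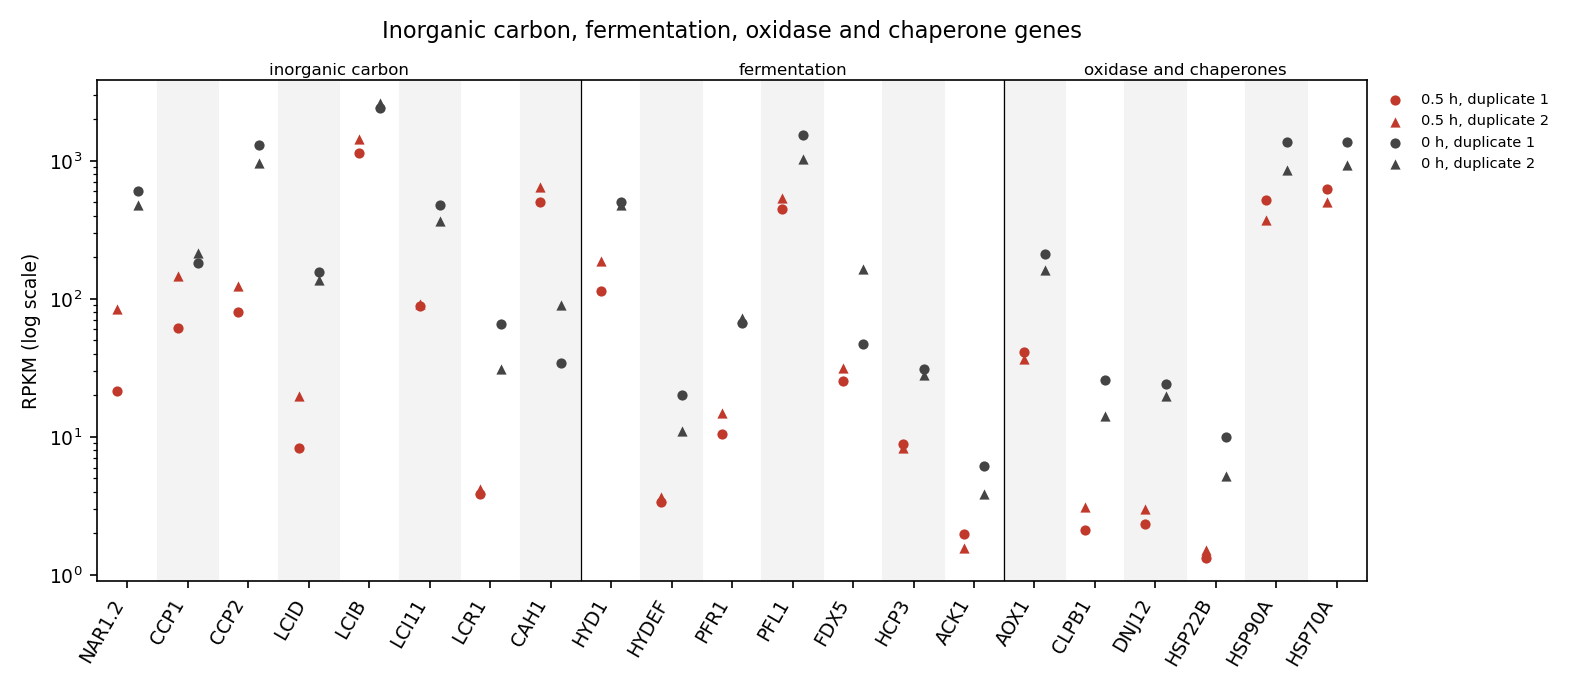
RPKM in each column (log scale) for genes of inorganic carbon supply and fermentation, the alternative oxidase AOX1 and chaperones, with 0.5 h in red to the left of 0 h in dark grey and circles and triangles for duplicates 1 and 2. Every gene shown except CAH1 is lower in both 0.5 h columns than in both 0 h columns, as were 23.7% of all transcripts.

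Of 76 chaperone genes 5 (6.58%) were higher and 5 (6.58%) lower, beside 5.83% and 3.72% of all transcripts, and 66 were not called. Among those called, DNJ12 (Cre02.g132300), a DnaJ-like protein, had 2.33 and 3.01 RPKM at 0.5 h, against 24.2 and 19.9 RPKM at 0 h (log2 change -2.65, SE 0.20, adjusted p = 1.1e-06). CLPB1 (Cre18.g746450), a disaggregase of the ClpB family, had 2.12 and 3.09 RPKM at 0.5 h, against 25.9 and 14.2 RPKM at 0 h (log2 change -2.50, SE 0.23). HSP22B (Cre07.g318850), a small heat shock protein, changed by -1.77, on 26 and 24 reads at 0.5 h and 214 and 192 reads at 0 h. The abundant cytosolic HSP90A (Cre09.g386750) had 516 and 369.8 RPKM at 0.5 h, against 1364 and 851 RPKM at 0 h (log2 change -1.30), and HSP70A (Cre08.g372100) 624 and 507 RPKM at 0.5 h, against 1378 and 934 RPKM at 0 h (log2 change -1.01, and under 2-fold without duplicate 1 of 0 h, -0.89, or of 0.5 h, -0.98).

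The small heat shock genes HSP22E (Cre14.g617450) and HSP22F (Cre14.g617400), which lie next to each other, were called higher. HSP22F had 2184 and 1629.8 RPKM at 0.5 h, against 644 and 1009 RPKM at 0 h (log2 change 1.23), and HSP22E 3209 and 1720.3 RPKM at 0.5 h, against 1099.7 and 1115 RPKM at 0 h (log2 change 1.08). Without duplicate 1 of 0.5 h neither was called (0.78 and 0.60), and HSP22E was at 0.95 after centring. DNJ5 (Cre16.g690400), another DnaJ-like protein, rose by 1.54. The list's median log2 change was -0.01, and after centring 2 were higher and 6 lower. The HSP90A, HSP70A, HSP22E and HSP22F genes were named after their values were seen.

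Genes for the flagella, the pair of motile cilia with which the alga swims, were lower in many cases. Of 224 tested flagellar associated proteins (FAP), named from the proteome of isolated flagella, 68 were lower and 2 higher, with a median log2 change of -0.81, beside 0.14 over all transcripts. Of 73 axoneme and intraflagellar transport genes 25 were lower and 0 higher, with a median of -0.90. Of all transcripts 3.72% were lower and 5.83% higher. The largest fall in these lists was -1.63, so the counts depended on the position of the 2-fold limit: after centring 103 FAP and 40 axoneme genes were lower. The summed RPKM of the axoneme list came to 0.382 and 0.369% of the total at 0.5 h, against 0.633 and 0.769% at 0 h.

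The list was also divided by part of the flagellum. Among outer dynein arm genes, which drive the beat, 7 of 10 were lower (median log2 change -1.07). ODA14 (Cre14.g617550), a subunit of the docking complex that anchors the arm, had 57.1 and 61.2 RPKM at 0.5 h, against 138 and 179.7 RPKM at 0 h (log2 change -1.40, SE 0.13, adjusted p = 3.2e-06). Among radial spoke genes, which pass signals to the dyneins, 11 of 15 were lower (median -1.05). RIB43a (Cre03.g178500) and RIB72 (Cre02.g091700), structural proteins of the doublet microtubules, changed by -1.52 and -1.28. Of 10 inner arm dynein genes, 8 intraflagellar transport genes and 9 BBSome genes, 0 were called lower, with medians of -0.67, -0.80 and -0.45; after centring 2, 2 and 0 were. Of all transcripts 3.72% were called lower. These flagellar subgroups were formed after the values were seen, and differences between them were not tested. TUB2, a beta-tubulin gene, had 1274 and 955 RPKM at 0.5 h, against 1644 and 1669 RPKM at 0 h, and was not called (log2 change -0.59).

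Of the 2 flagellar associated proteins that rose, FAP23 (Cre01.g005850), described as like a cobalamin adenosyltransferase, had 139 and 100.1 RPKM at 0.5 h, against 24.0 and 22.1 RPKM at 0 h (log2 change 2.31, SE 0.13, adjusted p = 2.3e-07). MOT38 (Cre13.g596700), which is in none of the lists and was found by its occurrence in organisms with motile cilia, had 61.8 and 30.5 RPKM at 0.5 h, against 4.46 and 3.85 RPKM at 0 h (log2 change 3.11, SE 0.28, adjusted p = 3.4e-06).

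Part of the genes of DNA replication rose. Of 65 cell cycle and replication genes 17 (26.2%) were higher and 0 lower, beside 5.83% and 3.72% of all transcripts. Their median log2 change was 0.71, and after centring 9 were higher. RFC4 (Cre06.g251800), a subunit of the clamp loader, had 10.7 and 12.6 RPKM at 0.5 h, against 3.37 and 3.52 RPKM at 0 h (log2 change 1.51, SE 0.13, adjusted p = 3.0e-06). MCM4 (Cre07.g316850), of the replicative helicase, had 6.87 and 8.73 RPKM at 0.5 h, against 3.03 and 1.74 RPKM at 0 h (log2 change 1.40, SE 0.19). MCM6 (Cre03.g178650) and MCM3 (Cre06.g295700) of the same helicase rose by 1.36 and 1.27, and RIR1 (Cre12.g492950), the large subunit of ribonucleotide reductase, by 1.35.

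Replication genes were also grouped by complex after the values were seen. Higher were 4 of 7 MCM genes, 4 of 5 replication factor C genes and 2 of 5 origin recognition genes, beside 5.83% of all transcripts. After centring 3, 2 and 1 were higher, beside 3.5% of all transcripts. All of these 17 genes had positive log2 changes, of 0.41 to 1.51, while the median over all transcripts was 0.14.

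**Figure D5:**
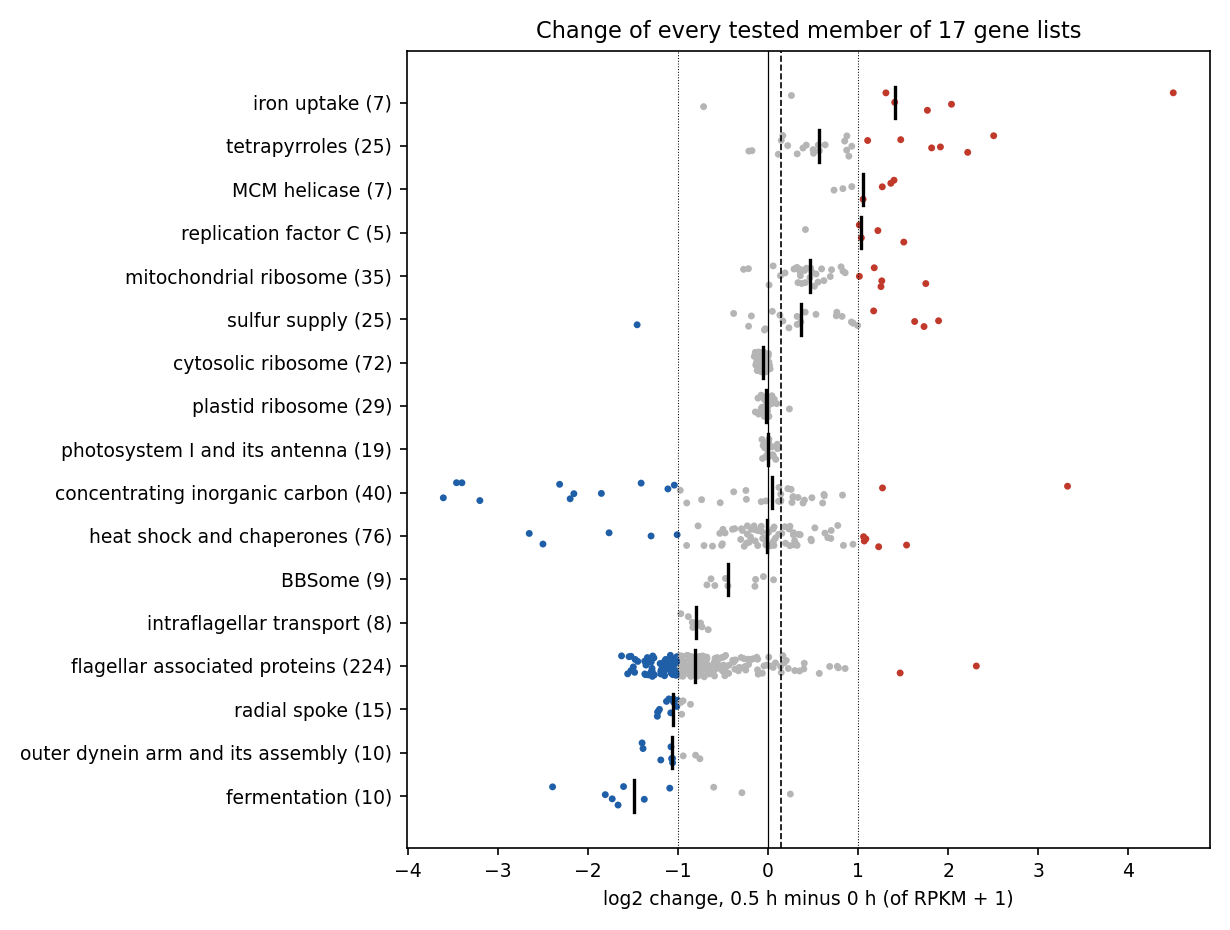
Log2 change from 0 h to 0.5 h of every tested member of 17 gene lists, with the number of members in brackets, the median as a black bar, red for members called higher, blue for lower and grey for the rest. The dashed line marks the median of all 12727 transcripts and the dotted lines 2-fold. Ribosome and photosystem I genes are packed around 0, most flagellar genes lie to the left, and inorganic carbon and chaperone genes spread to both sides.

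Ribosomal protein genes were listed by compartment. Of 72 cytosolic ribosomal protein genes 0 were called, with log2 changes confined to -0.15 to 0.02, although they held 35.5 and 37.2% of all RPKM at 0.5 h and 37.0 and 38.1% at 0 h. Of 29 plastid ribosomal genes 0 were called, between -0.14 and 0.24. Of 35 mitochondrial ribosomal genes 5 (14.3%) were higher and 0 lower, beside 5.83% and 3.72% of all transcripts. Their median was 0.46, and after centring 4 were higher. MRPL45 (Cre02.g117300), of the large mitochondrial subunit, had 5.51 and 7.35 RPKM at 0.5 h, against 0.857 and 1.58 RPKM at 0 h (log2 change 1.75, SE 0.12, adjusted p = 6.7e-07). Whether mitochondrial and other ribosomal genes differ in response was not tested.

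By limma no photosystem gene was called. The 19 tested for photosystem I with its light-harvesting proteins had log2 changes of -0.07 to 0.10. Of these, 0 were called and 0 had an unadjusted p under 0.05. Of 24 tested for photosystem II 0 were called, while 12 higher and 1 lower were under that p. Over all 12727 transcripts, 7762 were under it. In the photoprotection list LHCSR1 (Cre08.g365900), a light stress antenna protein, had 41.9 and 39.1 RPKM at 0.5 h, against 13.9 and 20.6 RPKM at 0 h (log2 change 1.21, SE 0.26, adjusted p = 0.0014), and 0.75 without duplicate 1 of 0 h. PGR5 (Cre05.g242400), needed for cyclic electron flow, had 425 and 446 RPKM at 0.5 h, against 780.2 and 981 RPKM at 0 h (log2 change -1.01, SE 0.12), and under 2-fold with duplicate 2 of 0 h (-0.84) or duplicate 1 of 0.5 h (-0.99) left out. The combined entry LHCSR2 || LHCSR3.1, whose copies are nearly identical, was not called at -0.76, nor were the early light-inducible genes ELI1 (0.92) and ELI4 (-0.80).

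Sulfur supply was higher in parts. SIR1 (Cre16.g693150), ferredoxin-sulfite reductase, had 229 and 121.3 RPKM at 0.5 h, against 33.2 and 58.8 RPKM at 0 h (log2 change 1.89, SE 0.37, adjusted p = 7.5e-04), and 1.17 without duplicate 1 of 0.5 h. SBP1 (Cre06.g257000), a chloroplast sulfate-binding protein, had 23.8 and 28.2 RPKM at 0.5 h, against 4.80 and 10.3 RPKM at 0 h (log2 change 1.73, SE 0.17). SLT2 (Cre10.g445000), a sodium/sulfate cotransporter, rose by 1.63 and ARS6 (Cre02.g085850), an arylsulfatase, by 1.17, whereas SULTR3 (Cre02.g138950), a proton-coupled sulfate transporter gene, changed by -1.45. Of 25 genes tested 4 (16%) were higher and 1 (4%) lower, beside 5.83% and 3.72% of all transcripts.

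In the phosphate list of 13, PTA3 (Cre16.g686750), a proton-coupled phosphate transporter, had 26.3 and 20.5 RPKM at 0.5 h, against 3.90 and 2.64 RPKM at 0 h (log2 change 2.52, SE 0.17, adjusted p = 6.7e-07). PTB3 (Cre26.g773300), of the sodium-coupled family, fell by 1.36 on the log2 scale, and 4 members were lower after centring in place of 1. In the nitrogen list of 22, the members called were NAR1.2 and NAR1.3, above, and GDH2 (Cre05.g232150), a glutamate dehydrogenase, with 86.4 and 132 RPKM at 0.5 h, against 352 and 245 RPKM at 0 h (log2 change -1.45, and -0.93 without duplicate 1 of 0 h).

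A few genes of carbon and amino acid metabolism rose. ACS3 (Cre07.g353450), an acetyl-CoA synthetase that brings acetate into metabolism, had 300.1 and 366 RPKM at 0.5 h, against 65.8 and 68.9 RPKM at 0 h (log2 change 2.28, SE 0.10, adjusted p = 1.5e-07). In its list, which covers acetate assimilation with the TCA cycle, the other 27 tested were not called. BTA1 (Cre07.g324200), which makes the betaine lipid headgroup, had 218 and 186 RPKM at 0.5 h, against 65.1 and 86.9 RPKM at 0 h. Its log2 change was 1.41 (SE 0.15). BTA1 was 1 of 2 (11.8%) called higher among 17 lipid genes, beside 5.83% of all transcripts. SHMT2 (Cre06.g293950), a serine hydroxymethyltransferase, had 406 and 273 RPKM at 0.5 h, against 81.1 and 128 RPKM at 0 h (log2 change 1.70, SE 0.23), and METE (Cre03.g180750), the cobalamin-independent methionine synthase, rose by 1.24 (0.94 without duplicate 1 of 0.5 h and 0.99 without duplicate 1 of 0 h). VTE5 (Cre09.g396250), related to phytol kinase, rose by 2.05. Of 44 redox genes 2 (4.55%) were higher and 0 lower, beside 5.83% and 3.72% of all transcripts. They were PRX6 (Cre10.g422300), a peroxiredoxin, and GPX3 (Cre03.g197750), a glutathione peroxidase, which rose by 1.56 and 1.46 on the log2 scale.

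The largest fall of all belonged to a transcript that the table describes only as an expressed hypothetical protein. Cre08.g372200 had 77.5 and 167 RPKM at 0.5 h, against 2141 and 1643 RPKM at 0 h, 15.5-fold less (log2 change -4.03, SE 0.33, adjusted p = 1.8e-06). Of 9755 tested transcripts without a symbol, 5.7% were higher and 3.18% lower, against 6.26% and 5.52% of 2972 with one. In a tandem group described as PRLI-interacting factor L, Cre16.g685000 and Cre16.g685100 changed by -3.54 and -3.34, and LCI15 is the third of the group; Cre16.g685100 had 1.16 and 1.43 RPKM at 0.5 h, against 25.1 and 19.6 RPKM at 0 h. Copies in tandem can share reads, so their single values are uncertain. Among described transcripts without a symbol that rose, Cre07.g352800, possibly related to RNA ligase, changed by 1.75, and Cre03.g195700, with a RabGAP domain, by 1.58.

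Some called transcripts lay side by side. Gene order was taken from the RefSeq annotation of assembly v5.5 for the 9836 members that matched it, giving 6922 pairs of direct neighbours in which both were tested. In 53 of these pairs both were higher, in 21 both were lower, and in 24 they went in opposite directions. Where the first transcript of a pair was higher, the second was higher too in 12.5% (53 of 423), beside 5.83% of all. Where the first was lower, the second was lower in 7.87% (21 of 267), beside 3.72%. The shares of all cover the 12727 transcripts, not only those in pairs. The pairs included CCP2 with LCID, CCP1 with LCIE, RSP4 with RSP6, HYDEF with Cre06.g296700 and LCI11 with Cre16.g663450. Copies of a gene and overlapping transcripts can be among these pairs, the strand of the reads is not given, and their part was not tested, nor was the excess over all transcripts.

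Cells could also enter the sexual state, for which markers were examined. Markers of gametes and zygotes found in the table numbered 10, and 6 of them were tested; HAP2 and PDK3 were set aside because the table gives these symbols to other genes, a haloperoxidase and a kinase. NSG13 (Cre07.g328800), a gene known from nitrogen-starved gametes, had 34.4 and 25.5 RPKM at 0.5 h, against 6.03 and 9.03 RPKM at 0 h (log2 change 1.87). GSP1 (Cre02.g109650), the homeodomain protein of plus gametes, had 2.31 and 4.50 RPKM at 0.5 h, against 0.510 and 1.18 RPKM at 0 h (log2 change 1.23). GAS30 (Cre11.g481750), a hydroxyproline-rich glycoprotein, changed by -1.12 (-0.58 without duplicate 1 of 0 h). Summed over the list, the markers held 416 and 281 RPKM at 0.5 h, against 323 and 239 RPKM at 0 h, most of it from GAS28, and their part in the other results was not tested.

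After 0.5 h the same genes took different courses, given here as means of both columns with no test. FRE1 stood at 0.200, 27.8, 29.6 and 131 RPKM at 0, 0.5, 1 and 2 h and at 1804 RPKM at 12 h, while IRT1 stood at 0.835, 4.03 and 0.958 RPKM at 0, 0.5 and 1 h and at 20.1 RPKM at 4 h. CYC6 had its highest mean at 0.5 h, at 21.2 RPKM, with 16.7 RPKM at 1 h and 4.49 RPKM at 2 h. SIR1 was likewise highest at 0.5 h, at 175 RPKM, with 67.3 RPKM at 2 h, and MOT38 held 46.2, 46.7 and 42.4 RPKM at 0.5, 1 and 2 h before 2.70 RPKM at 8 h. NAR1.2 had 540.3, 53.3, 11.3 and 5.17 RPKM at 0, 0.5, 1 and 2 h. CTR2, at 14.1 RPKM at 0.5 h, stayed between 6.85 and 24.0 RPKM at every later time, CLPB1 was at 2.60 RPKM at 0.5 h and 14.8 RPKM at 48 h, and HYD1, at 151 RPKM at 0.5 h, reached 269 RPKM at 48 h. In these means CYC6 and SIR1 were lower again by 4 h than at 0 h, and CTR2 was below its 0 h level at each later time.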

How the data were processed

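The values are RPKM, as deposited by the authors in 1 table of 17301 transcripts and 18 columns, with 0 columns left unused. No header names the unit, which follows from the values. The submitters' processing notes list Bowtie. Its version is not given in the sources used here, nor are build, counting tool or filters. Relative depth was recovered from the steps of low RPKM values, which solved a length for 9209 transcripts (median 2333 bases).

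limma 3.58.1 in R 4.3.3 (limma-trend) was run on log2(RPKM + 1) of all 18 columns in 1 model of time (9 levels) plus a block for duplicate number, leaving 8 residual degrees of freedom. Members were not filtered further. That the numbers pair the columns was checked by correlating duplicate differences between times: r was 0.32 to 0.71 over 36 pairs of times, and 0.44 between 0.5 h and 0 h. Summaries used Python 3.11.15 with pandas 2.3.3. In simulated data with 100 transcripts each changed by 1.5 and 2 (log2), 90 and 95 were called, with 6 of 12527 unchanged ones. The simulated noise was independent, with no other change over time and no difference shared by duplicates of the same number. Changed transcripts were drawn from those with a mean log2(RPKM + 1) above 1. The shares called can therefore differ in the real columns and for weaker transcripts. Smaller changes, such as the medians of 1.19 and -1.26 among the called transcripts, were not simulated.

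The members and the 45 gene lists were chosen with earlier results of these data known, and lists were matched to symbols and descriptions in the table. Genes whose symbol belongs to another protein in the table (4 glycosyltransferases among tetrapyrroles, 3 pyruvate dehydrogenase subunits among fermentation genes, and single lipid and gamete entries) were removed after the values were seen. Named genes were the 20 largest rises and falls with a symbol among called transcripts changed at least 2-fold in both pairs, the 5 largest described ones without a symbol, called members of the iron, copper, inorganic carbon, fermentation, nitrogen, phosphate and sulfur lists, the 4 largest of other lists, and uncalled members of lists of at most 12; not all are printed. Other names are marked where they occur. Alternatives were centring, pseudocounts, filters, no block, fewer columns, no variance trend and a stricter threshold.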

Additional observations from a re-analysis of the deposited data

How the results depend on the processing

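The main counts were 742 higher and 474 lower. Centring each column on its median gave 446 higher and 694 lower, and the higher ones were all among the 742. The pseudocount moved the counts most: higher transcripts numbered 1600 with 0.1 RPKM, 1152 with 0.5 RPKM and 172 with 5 RPKM, and lower ones 723 with 0.1 RPKM and 231 with 5 RPKM. Leaving out each of the 4 columns in turn gave 738 to 867 higher and 479 to 530 lower, of which 570 to 644 and 368 to 416 were shared with the main calls. Without the replicate block 719 were higher and 462 lower, and beside IRT1 and CCP1 the block decided no call of a gene named in the report. Filters of 5 RPKM or over the 4 columns, no filter, the 4 columns alone, no variance trend and a threshold of 0.01 kept both counts within 1.5 times. NRAMP1, not called, turned to -0.12 without 0 h replicate 1 and was 0.64 without 0 h replicate 2.

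With 2 columns per time, 1 column decides the size of several changes, as given beside FEA1, IRT1, CYC6, CAH1, CCP1, NAR1.2, FDX5 and SIR1. Of the genes named in the report, ARS6, GSP1, MRPL45, COX16, MCM3, MCM4, MCM6, Cre03.g195700, GPX3, LCIE, PGR5, RFC4, ZIP6, HSP22B, ACK1, GAS30, IRT1 and CTR1 were not called with a pseudocount of 5 RPKM.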
